A study of Mus musculus with 38 samples.

Results

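Glycolysis and hypoxia-responsive genes were examined across sorted cells of the bone marrow of mice with and without myeloma. The group holds 39 genes chosen by name from 13260 genes with RPKM values (reads scaled to transcript length in kilobases and to library size), and all 39 were found. It was assembled around Ankrd37, which was selected on its level in myeloma cells of the bone lining against those of the central marrow, and the other 38 were named for their roles. By role, 4 carry glucose or lactate across the cell membrane, 9 belong to upper glycolysis, 8 to lower glycolysis and the use of pyruvate, 4 form or degrade the hypoxia-inducible factors, and 14 are targets of these factors.

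Each RNA-Seq library came from 100 sorted cells. C57Bl/KaLwRij mice aged 8 to 10 weeks were given PBS or 1000000 5TGM1-GFP cells intravenously, and were culled at day 23. 5TGM1 is a murine myeloma line, marked here by a green fluorescent protein, so tumour cells of all mice share 1 line. The 28 niche libraries were endothelial cells (CD31+; 5 libraries from healthy and 5 from myeloma-bearing mice), stromal progenitors (Sca1+ALCAM-; 5 and 5) and osteoprogenitors (ALCAM+Sca1-; 4 and 4). GFP+ myeloma cells gave 5 libraries from the bone lining and 5 from the central marrow. Bone-lining cells were released with collagenase whereas central marrow was flushed, so niche and digestion cannot be told apart in the myeloma cells. Libraries are named by the letter of their code, and no label says whether a letter stands for 1 mouse, so p-values measure the spread between these libraries only.

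Depth ran from 9735031 to 34883291 reads on genes per library. Endothelial, myeloma and osteoblast markers followed the sort. Summed over 7 endothelial markers, endothelial libraries held 2057 to 4384 RPKM, and no other library exceeded 29.7 RPKM. Summed over 6 myeloma markers, the range was 3931 to 10760 RPKM in myeloma cells and at most 452 RPKM in niche cells. Osteoprogenitors held 8094 to 64330 RPKM over 8 osteoblast markers, against at most 1214 RPKM elsewhere. The sum over 6 stromal progenitor markers was not specific, since it was higher in endothelial cells (2724 to 8974 RPKM) than in stromal progenitors (1105 to 3112 RPKM). It includes Ly6a and Cxcl12, which the paper lists as enriched in endothelial cells too, so it does not speak for each marker. Libraries L of healthy and E of myeloma-bearing stromal progenitors stood apart with 7353 and 8132 RPKM over 6 neutrophil markers, where all others held at most 292 RPKM.

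Glycolysis splits glucose to pyruvate in the cytoplasm, and lactate dehydrogenase turns pyruvate to lactate when oxygen is short or flux is high. The hypoxia-inducible factors are pairs of a stable beta subunit and an alpha subunit, Hif1a or Epas1 (HIF-2 alpha), which prolyl hydroxylases such as Egln1 and Egln3 mark for destruction in the presence of oxygen. When the alpha subunit persists, the pair binds the core motif RCGTG near target genes, which include most glycolytic enzymes. Bone marrow is known as a tissue of low oxygen tension. A level of Hif1a mRNA does not measure the protein, which is set largely by its stability.

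The promoters of 4 genes on which the results turn are shown: Ankrd37, Bnip3 and P4ha2, which had the largest shortfall in healthy endothelial cells by the smaller of their differences from stromal progenitors and osteoprogenitors, and Ero1l, which was higher in myeloma cells. Each stretch is the 250 bases before a RefSeq transcript start on GRCm38.p6, written 5′ to 3′ on the strand of the gene, with ACGTG and GCGTG and their reverse complements in capitals. The stretch of Ankrd37 lies at chr8:45999851-46000100 (minus strand), that of Bnip3 at chr7:138909507-138909756 (minus), that of P4ha2 at chr11:54100674-54100923 (plus) and that of Ero1l, which RefSeq names Ero1a, at chr14:45318573-45318822 (minus). The Ankrd37 stretch lies within the span of the gene, which ends at 46000414, and so precedes an inner start.
Ankrd37: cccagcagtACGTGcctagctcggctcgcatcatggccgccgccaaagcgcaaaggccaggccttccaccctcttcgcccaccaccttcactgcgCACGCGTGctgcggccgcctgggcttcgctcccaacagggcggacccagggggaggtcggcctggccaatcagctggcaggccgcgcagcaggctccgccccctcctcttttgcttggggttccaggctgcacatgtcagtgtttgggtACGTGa
Bnip3: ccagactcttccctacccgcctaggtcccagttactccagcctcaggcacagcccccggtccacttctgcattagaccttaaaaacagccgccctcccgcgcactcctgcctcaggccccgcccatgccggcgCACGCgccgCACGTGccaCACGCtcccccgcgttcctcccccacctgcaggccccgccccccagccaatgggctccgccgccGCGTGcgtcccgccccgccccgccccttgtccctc
P4ha2: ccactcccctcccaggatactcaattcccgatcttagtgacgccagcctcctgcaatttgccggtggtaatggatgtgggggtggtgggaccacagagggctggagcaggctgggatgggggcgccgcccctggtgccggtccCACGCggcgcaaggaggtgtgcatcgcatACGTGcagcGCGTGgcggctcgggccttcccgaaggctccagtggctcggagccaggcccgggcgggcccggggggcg
Ero1l: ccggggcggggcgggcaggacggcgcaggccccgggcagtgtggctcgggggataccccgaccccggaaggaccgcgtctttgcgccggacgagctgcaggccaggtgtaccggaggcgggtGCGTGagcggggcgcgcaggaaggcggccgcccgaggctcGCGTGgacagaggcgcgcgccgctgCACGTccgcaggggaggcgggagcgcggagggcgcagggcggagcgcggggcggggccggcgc

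The Ankrd37 stretch holds 4 matches, that of Bnip3 5, and those of P4ha2 and Ero1l 3 each. Matches on both strands were counted, so a palindromic CACGTG counts as 2 and neighbouring matches can overlap. In windows of 300 bases, from 250 before to 50 after the start, RefSeq held a window for 34 of the 39 genes, and 31 of these 34 (91.2%) had either motif in at least 1 window. Among all 27025 genes with a window the share was 46.7%. Counted by window, 38 of 47 windows of the 34 genes and 43.8% of all 32851 windows held a match. The 17 genes with a window that were lower in healthy endothelial cells and the 17 others held a match in 16 and 15 cases, respectively. A match is a description of the letters and was not tested as a binding site.

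Levels on the RPKM scale, which is per length, differed widely among the 39 genes. A total of 22 had a group mean above 1 RPKM in all 8 groups. The highest group mean fell in healthy stromal progenitors for 9 genes and in healthy osteoprogenitors for 8, against 6 in healthy endothelial cells. In myeloma-bearing mice it fell in osteoprogenitors for 5 genes, in stromal progenitors for 4, in endothelial cells for 2, in bone-lining myeloma cells for 4 and in central marrow myeloma cells for 1. These counts stand without the same counts over all genes and are description only. Fam162a, a mitochondrial protein induced by hypoxia, had the highest mean of the group in 6 of the 8 groups, at 608 ± 174 RPKM (SD, n = 5) in healthy stromal progenitors. Ldha, which makes lactate, and Aldoa, the main aldolase, were abundant in all cell types, between 111 and 324 RPKM and between 77.3 and 326 RPKM as group means. Gapdh (1.47 to 6.71 RPKM) and Eno1 (0.0201 to 1.26 RPKM) were listed far below them. These genes and Pgk1 and Pgam1 have near-identical copies in the genome, among which reads could be split or lost in counting, so their levels are uncertain.

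**Figure D1:**
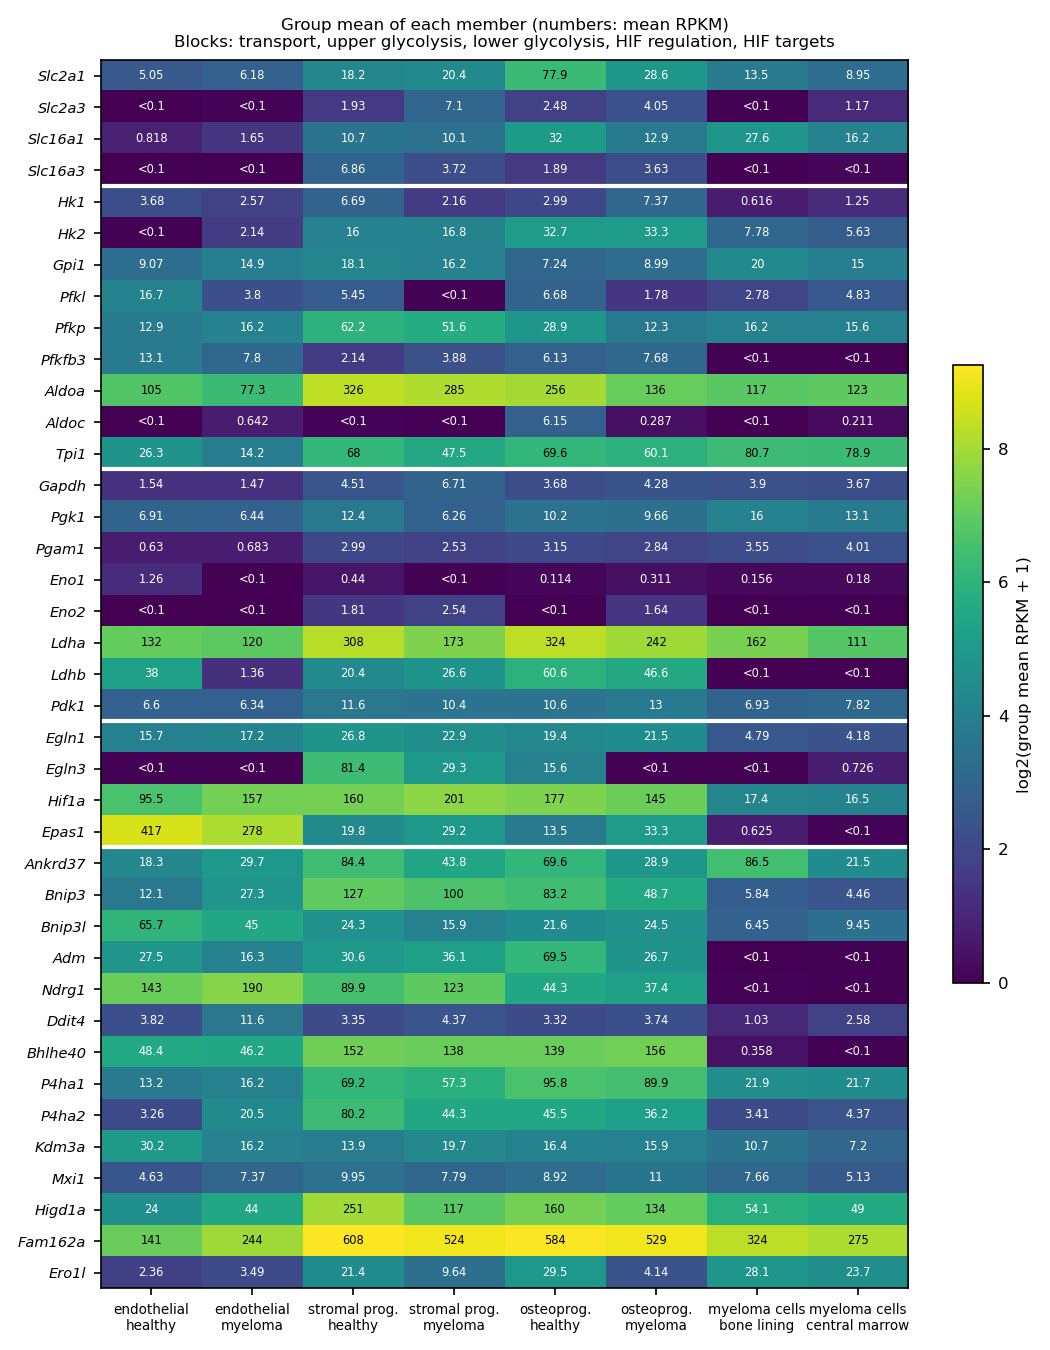
Mean RPKM of each of the 39 genes (rows, in blocks by role) in each of the 8 groups (columns), coloured by log2(mean RPKM + 1) with the mean printed in each cell. Ndrg1, Bhlhe40, Epas1 and Adm are near 0 in both groups of myeloma cells, and most genes are lower in endothelial cells than in stromal progenitors and osteoprogenitors.

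Ankrd37 encodes an ankyrin repeat protein and is a known HIF target. It lies on chromosome 8 at 45996908 to 46000414 (GRCm38.p6). In bone-lining myeloma cells it was 70.8, 79.0, 83.9, 114 and 85.2 RPKM in libraries D, E, G, I and J. In central marrow myeloma cells it was 15.7, 19.0, 32.6, 31.7 and 8.46 RPKM in the same order of letters. All bone-lining values lay above all central marrow values, which is the pattern that placed Ankrd37 in the group and is therefore given without a test. Between the 2 sites, 18 of 8857 genes (0.203%) were past the thresholds used throughout (adjusted p below 0.1 and a log2 difference beyond 1 in limma). Nothing is read from this share, since the group was assembled on that difference. Beyond Ankrd37, whose log2 difference on the RPKM + 1 scale was 2.09, the differences of the other 25 genes that passed the filter on low values lay between -0.73 (Pfkl) and 0.66 (Slc16a1, the lactate carrier MCT1). Sums over 19 immediate-early genes, a sign of handling, were 219.8 to 527 RPKM in the bone lining and 147 to 223 RPKM in the central marrow, and their part in the difference was not tested.

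Niche cells varied far more in Ankrd37. Healthy endothelial cells held 0, 0, 0.137 and 0.639 RPKM in libraries L, N, O and C and 90.7 RPKM in library M. Endothelial cells of myeloma-bearing mice held 0.0615, 0.408, 3.62, 61.7 and 82.8 RPKM in libraries E, G, I, J and D. Single aliquots thus ranged from no reads to levels like those of bone-lining myeloma cells. Healthy stromal progenitors held 14.0, 161, 10.9, 93.3 and 143 RPKM in libraries C, L, M, N and O, and those of myeloma-bearing mice 117, 62.9, 11.0, 0.222 and 27.6 RPKM in libraries D, E, G, I and J. Healthy osteoprogenitors held 43.3, 85.0, 94.5 and 55.6 RPKM in libraries L, M, N and O, and those of myeloma-bearing mice 1.09, 10.2, 71.9 and 32.6 RPKM in libraries D, G, I and J. By group mean, the order was bone-lining myeloma cells (86.5 RPKM), healthy stromal progenitors (84.4), healthy osteoprogenitors (69.6), stromal progenitors of myeloma-bearing mice (43.8), endothelial cells (29.7) and osteoprogenitors (28.9) of myeloma-bearing mice, central marrow myeloma cells (21.5) and healthy endothelial cells (18.3). Neighbours in this order differed by less than the SD of at least 1 of them. In the annotation, 349 of the 1539 exon bases of Ankrd37 (22.7%) overlap Lrp2bp on the other strand, and strand was not used in counting. Lrp2bp itself was at most 11.3 RPKM in bone-lining and 4.15 RPKM in central marrow myeloma cells and at most 1.93 RPKM in niche cells.

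**Figure D2:**
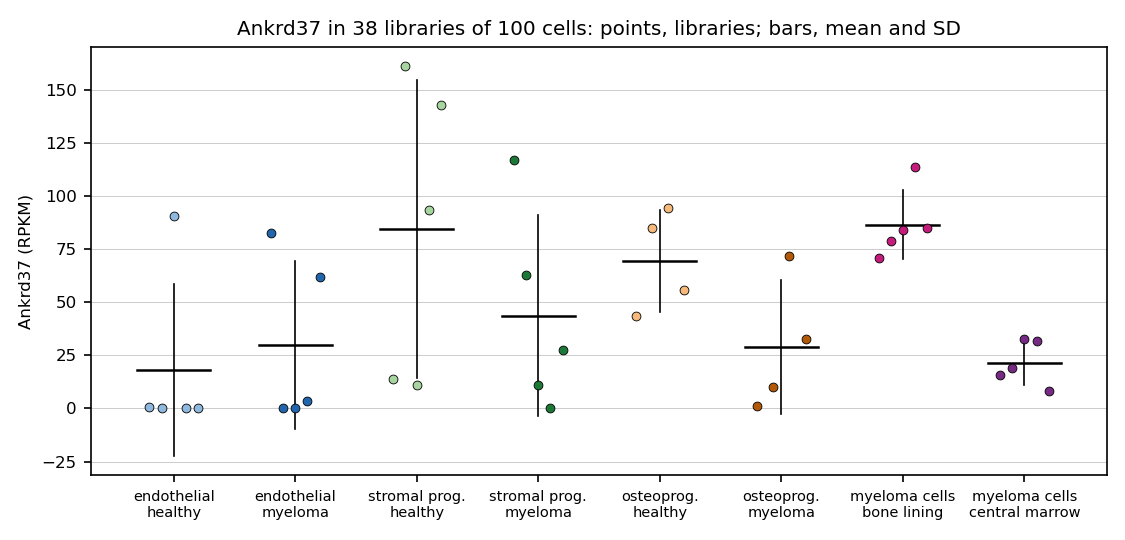
Ankrd37 in RPKM (linear axis) in each of the 38 libraries, by group. Points are libraries, horizontal bars group means and vertical bars the SD. The 5 bone-lining myeloma libraries lie between 70.8 and 114 RPKM and the 5 of central marrow between 8.46 and 32.6 RPKM, while endothelial libraries are mostly near 0 with single libraries at up to 90.7 RPKM.

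To ask how the cell types differ in this programme without tumour, healthy endothelial cells were compared with both healthy stromal progenitors and healthy osteoprogenitors. Of 38 genes of the group that passed the filter on low values (Eno1 did not), 18 were lower in endothelial cells than in both (limma, Benjamini-Hochberg adjusted p below 0.1), and 1, Epas1, was higher than in both. Over all 12683 genes tested, 6.73% were lower and 5.43% were higher by the same rule. The 18 were 3 of 4 transporters (Slc2a1, Slc16a1, Slc16a3), 4 of 9 genes of upper glycolysis (Hk2, Pfkp, Aldoa, Tpi1), 2 of the 7 tested of lower glycolysis (Pgam1, Ldha), Egln3 and 8 of 14 HIF targets (Ankrd37, Bnip3, Bhlhe40, P4ha1, P4ha2, Higd1a, Fam162a, Ero1l). The median log2 difference of the 38 genes was -1.23 against stromal progenitors and -1.43 against osteoprogenitors, beside -0.12 and -0.21 over all genes tested. The fit pooled 1 variance per gene over all 38 libraries, among which myeloma cells varied least and endothelial cells most. The SE and p-values given for endothelial cells are therefore not those of their own spread and can be too small.

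Bnip3, a receptor for the removal of mitochondria, was 31.0, 0.0324, 29.2, 0 and 0.0938 RPKM in endothelial libraries C, L, M, N and O. It was 70.1, 135, 130.2, 164 and 134 RPKM in the stromal progenitor libraries of the same letters and 67.6, 70.6, 134 and 61.0 RPKM in osteoprogenitor libraries L, M, N and O. No endothelial library reached the lowest of the other 9, and the log2 difference was -4.92 ± 0.85 (SE; limma adjusted p = 3.15e-05) against stromal progenitors and -4.30 ± 0.90 (adjusted p = 0.000524) against osteoprogenitors. Of the exon bases of Bnip3, 22.3% overlap an antisense transcript, Gm45507.

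P4ha2, a catalytic subunit of the collagen prolyl hydroxylase, was 1.16, 0.0486, 0.0365, 15.0 and 0.0879 RPKM in the endothelial libraries C, L, M, N and O. It was 79.9, 197, 28.1, 59.1 and 37.0 RPKM in stromal progenitors of those letters and 52.1, 16.7, 106 and 7.22 RPKM in osteoprogenitors L, M, N and O. Library N of endothelial cells lay above library O of osteoprogenitors, so the groups overlapped, and the log2 differences were -4.93 ± 0.93 (limma adjusted p = 0.000127) and -3.84 ± 0.99 (adjusted p = 0.00483). P4ha1, the other such subunit, did not overlap, at 0.163 to 37.5 RPKM in endothelial cells and 52.7 to 134 RPKM in the other cells. For Ankrd37 the log2 differences were -4.23 ± 1.21 (limma adjusted p = 0.0127) and -4.59 ± 1.29 (adjusted p = 0.0105), despite the overlap through endothelial library M.

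Hexokinase 2, which phosphorylates glucose in the first step of glycolysis, was nearly silent in healthy endothelial cells, where Hk2 had 1 to 8 reads per library (at most 0.0838 RPKM) against 1.17 to 41.8 RPKM in the other cells. Slc16a3, the lactate exporter MCT4, had at most 1 read in any of the 5 endothelial libraries, and 0.126 to 13.9 RPKM in the other cells. Slc2a1, the glucose transporter GLUT1, was 0 to 10.6 RPKM in endothelial cells, 9.89 to 37.5 RPKM in stromal progenitors and 54.0 to 106 RPKM in osteoprogenitors. Ldha was 96.5 to 182 RPKM in endothelial cells and 182 to 412 RPKM in the others, a log2 difference of -1.18 ± 0.40 (limma adjusted p = 0.0406) and -1.29 ± 0.43 (adjusted p = 0.0347). The mitochondrial proteins Higd1a (11.3 to 44.0 against 101 to 409 RPKM) and Fam162a (0.448 to 253 against 333 to 792 RPKM) did not overlap either, though 22.5% and 19.8% of their exon bases overlap a gene on the other strand (Gm47112 and Wdr5b). Wdr5b was at most 21.4 RPKM in healthy endothelial cells (median 0.23), 17.2 RPKM in stromal progenitors (median 0.16) and 32.6 RPKM in osteoprogenitors (median 14.1). Its part in the difference of Fam162a was not tested. Altogether, endothelial libraries did not overlap the other 9 for Hk2, Ldha, Slc16a3, Bnip3, P4ha1, Higd1a and Fam162a. Overlap was not counted over all genes, and a call itself selects for separation, so nothing is read from the number of such genes. Egln3 overlapped through osteoprogenitor library O only, which held 0.0203 RPKM. Genes of this paragraph are given by their ranges and were picked after their values were seen.

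**Figure D3:**
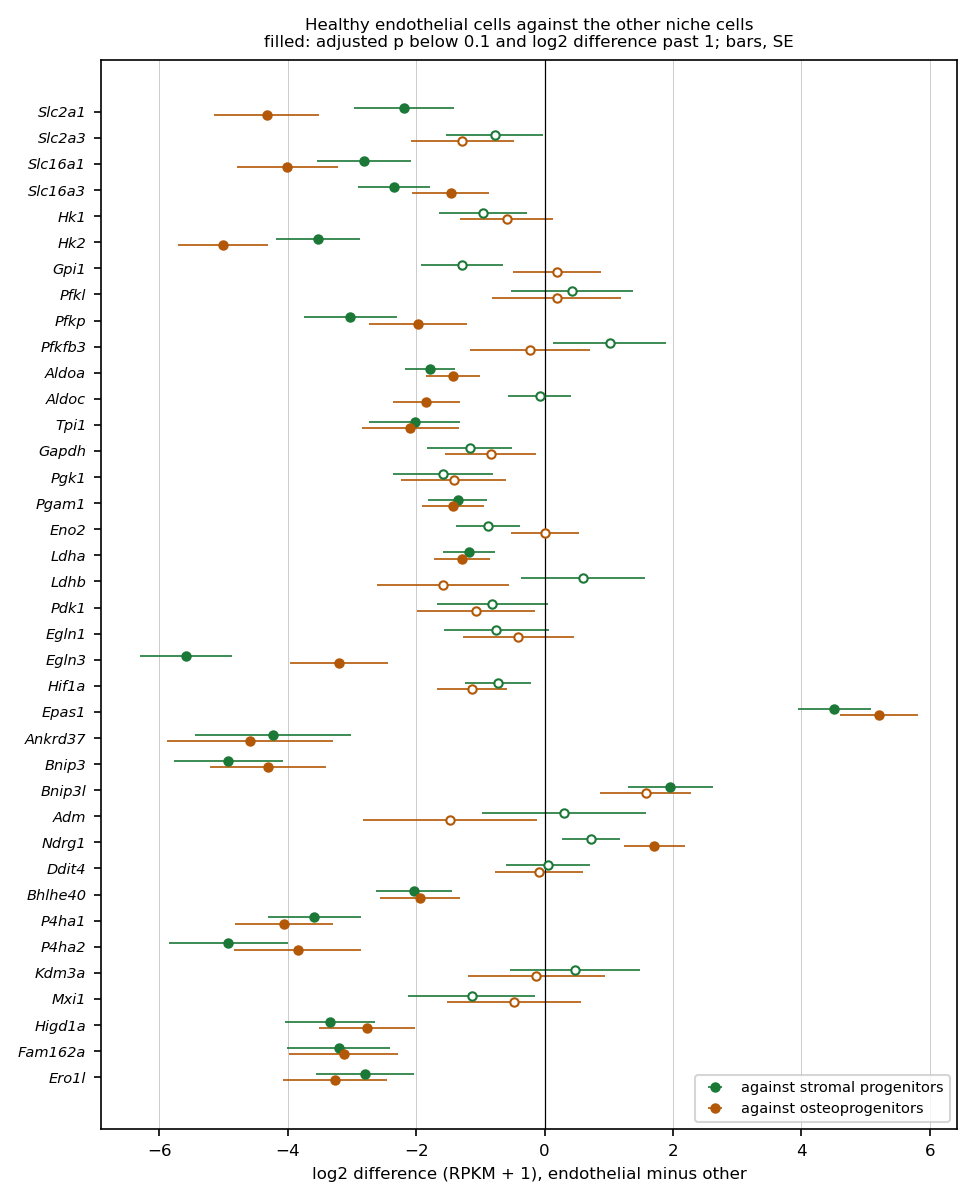
Log2 difference of each tested gene (RPKM + 1), healthy endothelial cells minus healthy stromal progenitors (green) or osteoprogenitors (orange), with the SE as bars. Filled points pass an adjusted p of 0.1 and a log2 difference of 1; 18 genes have both points filled on the left of 0 and Epas1 alone has both on the right.

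Epas1 ran the other way. It was 149, 773, 459, 357 and 348 RPKM in healthy endothelial libraries C, L, M, N and O, 23.1, 36.2, 5.04, 5.61 and 29.2 RPKM in stromal progenitors of those letters, and 36.3, 4.47, 9.51 and 3.57 RPKM in osteoprogenitors L, M, N and O. The groups did not overlap, and the log2 difference was 4.51 ± 0.57 (limma adjusted p = 1.13e-07) and 5.21 ± 0.61 (adjusted p = 1.95e-08). Hif1a did not pass against either, at -0.73 ± 0.52 and -1.13 ± 0.55 (adjusted p = 0.41 and 0.174). Within libraries, Epas1 exceeded Hif1a in 10 of 10 endothelial libraries, and Hif1a exceeded Epas1 in all 18 libraries of the other niche cells and all 10 of myeloma cells.

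Other genes of these pathways were read from lists that exclude the 39. Of 25 other genes of glycolysis and pyruvate use, 4 were lower in healthy endothelial cells than in both other types and 0 higher. Of 45 other HIF pathway and hypoxia genes, 12 were lower and 3 higher. Over all genes 6.73% were lower and 5.43% higher. The largest differences were those of Plod2, a collagen lysyl hydroxylase (4.21 ± 6.13 RPKM in endothelial cells, 162 ± 49.0 in stromal progenitors and 183 ± 40.9 in osteoprogenitors), and Tmem45a (5.46 ± 12.1, 138 ± 22.4 and 97.9 ± 32.1 RPKM) among those that were lower. Among those that were higher they were those of the secreted glycoprotein Stc1 (20.3 ± 28.2, 0.189 ± 0.38 and 0.0157 ± 0.0314 RPKM) and Rsbn1 (17.6 ± 19.1, 0.344 ± 0.351 and 0.501 ± 0.87 RPKM).

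Endothelial libraries tended to hold fewer genes above 1 RPKM (4501 to 7463 in healthy mice) than stromal progenitors (6449 to 8532) and osteoprogenitors (7660 to 8789). Endothelial library C lay above stromal progenitor libraries L, M and O. The part of these numbers in the shortfall was not tested. Summed over 8 macrophage and osteoclast markers, healthy endothelial libraries held 2.97 to 182.5 RPKM, stromal progenitors 102.9 to 697 RPKM and osteoprogenitors 268 to 499.7 RPKM. Most of the sum in the latter 2 was Ctsk (medians 263 and 326 RPKM), while the macrophage receptor gene Csf1r was at most 0.388 RPKM and Emr1 was at 0 in all 14 healthy libraries. The part of these markers in the shortfall was not tested. In these aliquots, fewer cells that use a gene and less RNA per cell cannot be told apart. In myeloma-bearing mice, an alternative added after the data were seen, 8 of 38 genes were lower in endothelial cells than in both other types, beside 5.15% of all genes, and 7 of these 8 were among the 18 of healthy mice (Slc2a1, Hk2, Tpi1, Slc16a3, Bhlhe40, P4ha1 and Higd1a). By the same rule Epas1 was the 1 gene of the group that was higher, beside 5.01% of all genes. In a fit of the libraries compared alone, 9 of 33 genes were lower in healthy mice, beside 5.93% of all 7626 genes, and all 9 were among the 18.

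Healthy osteoprogenitors and stromal progenitors differed in 1 gene in each direction, beside 2.38% of all genes higher and 1.57% lower in osteoprogenitors. Aldoc, the aldolase of brain and other tissues, was 15.8, 8.84, 0 and 0 RPKM in osteoprogenitor libraries L, M, N and O, and 0.298 RPKM in stromal progenitor library C and 0 in the other 4. The log2 difference was 1.77 ± 0.52 (limma adjusted p = 0.0587). Aldoc passed the filter of 4 libraries above 1 RPKM only through the 2 osteoprogenitor libraries in which it was high and 2 libraries outside the comparison (3.21 and 1.15 RPKM), so nothing is read from this call. Egln3, the prolyl hydroxylase that is itself a HIF target, was 22.0, 10.6, 29.9 and 0.0203 RPKM in osteoprogenitors L, M, N and O and 12.9, 211, 13.2, 94.7 and 75.1 RPKM in stromal progenitors C, L, M, N and O. The groups overlapped, and the log2 difference was -2.38 ± 0.76 (adjusted p = 0.0927). Neither passed without stromal progenitor libraries L and E, which carried neutrophil markers (adjusted p = 0.11 for Aldoc and 0.252 for Egln3). Slc2a1 was higher in all 4 osteoprogenitor libraries than in all 5 of stromal progenitors, with a log2 difference of 2.14 ± 0.82, which did not pass (limma adjusted p = 0.203). In a fit of the libraries compared alone, in which Aldoc was removed by the filter, Slc2a1 was called, beside 1.69% of all genes. Slc2a1 was singled out after its values were seen. Of the other hypoxia genes, only the carbonic anhydrase Car12 was higher in osteoprogenitors (23.2 ± 15.9 against 0.00861 ± 0.0125 RPKM), and none of the 45 was lower.

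Myeloma cells of both sites were compared with the 3 niche cell types of myeloma-bearing mice, and a gene was counted when it passed against each of them. Of 38 genes tested, 5 were lower in myeloma cells than in each (Hif1a, Epas1, Adm, Ndrg1 and Bhlhe40), beside 6.35% of all 12683 genes, and 1 was higher (Ero1l), beside 9.51%. None of the 20 tested genes of transport and glycolysis passed against all 3, although Pgam1 and Slc16a1 were higher when reads were scaled by library totals alone, where the share over all genes was 17.4%. Pfkfb3 was lower with a pseudocount of 0.1 (beside 933 of 12683 genes), under voom-limma (952 of 13260) and without the 2 neutrophil-marked libraries (788 of 12607). The median log2 difference of the 38 genes was 0.36 against endothelial cells, -1.03 against stromal progenitors and -0.90 against osteoprogenitors, beside 0.21, 0.11 and 0.09 over all genes. The same 8 macrophage and osteoclast markers summed to 170.5 to 903 RPKM in myeloma cells, nearly all of it Cd68, with Csf1r at most 0.729 RPKM, against 1.81 to 733 RPKM in the niche cells of myeloma-bearing mice, and their part in these differences was not tested. The 19 immediate-early genes, a sign of handling, summed to 147 to 527 RPKM in myeloma cells and 3265 to 8436 RPKM in these niche cells. Their part in the differences was not tested either.

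Ndrg1, a stress-responsive cytoplasmic protein, had at most 11 reads in any of the 10 myeloma libraries. It was 0.0423, 0.0736, 0.0458, 0.149 and 0.0518 RPKM in bone-lining libraries D, E, G, I and J and 0, 0.0384, 0.0167, 0.0348 and 0.0487 RPKM in those of the central marrow. Endothelial libraries D, E, G, I and J held 214, 278, 107, 162 and 189 RPKM, stromal progenitors of the same letters 169, 90.8, 76.3, 243 and 34.8 RPKM, and osteoprogenitors D, G, I and J 73.0, 28.7, 20.2 and 27.6 RPKM. There was no overlap, and the log2 differences were -7.44 ± 0.39, -6.59 ± 0.39 and -5.02 ± 0.42 (limma adjusted p at most 2.35e-12). Bhlhe40, a repressor of transcription, was 0.0131, 1.62, 0.0851, 0.0504 and 0.024 RPKM in bone-lining libraries D, E, G, I and J and 0.03, 0.0238, 0.0465, 0.0485 and 0.0301 RPKM in those of the central marrow. It was 19.7, 88.7, 12.4, 29.2 and 80.8 RPKM in endothelial libraries D, E, G, I and J, 155, 214, 63.9, 155 and 102 RPKM in stromal progenitors and 169, 121, 181 and 152 RPKM in osteoprogenitors D, G, I and J. These groups did not overlap either, with log2 differences of -4.99 ± 0.51, -6.82 ± 0.51 and -7.09 ± 0.55.

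Both HIF alpha subunits were lower in myeloma cells. Epas1 was 0.0457, 0.199, 0.165, 0.169 and 2.55 RPKM in bone-lining libraries D, E, G, I and J and 0.0175, 0.0276, 0, 0.113 and 0.14 RPKM in central marrow libraries of those letters. In myeloma-bearing mice it was 263, 239, 269, 347 and 274 RPKM in endothelial libraries D, E, G, I and J, 17.9, 41.5, 17.2, 28.8 and 40.5 RPKM in stromal progenitors of those letters, and 40.8, 15.1, 36.2 and 40.8 RPKM in osteoprogenitors D, G, I and J. The groups did not overlap, with log2 differences of -7.81 ± 0.50, -4.52 ± 0.50 and -4.70 ± 0.54 (limma adjusted p at most 4.75e-09). Hif1a was present at 11.0 to 25.4 RPKM in myeloma cells (median 16.01) and at 71.5 to 418 RPKM in the 14 niche libraries, again without overlap (log2 differences of -3.04 ± 0.45, -3.27 ± 0.45 and -2.95 ± 0.48). Adm, the vasodilator peptide adrenomedullin, had at most 4 reads in any myeloma library, and was 0 to 43.5 RPKM in endothelial cells, 0 to 71.9 RPKM in stromal progenitors and 19.7 to 37.3 RPKM in osteoprogenitors. It overlapped through endothelial library D and stromal progenitor library I, both listed at 0, and did not pass without the libraries of letter G.

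Ero1l, an oxidase of the endoplasmic reticulum that forms disulphide bonds, was 11.9, 27.5, 38.3, 35.9 and 26.9 RPKM in bone-lining libraries D, E, G, I and J and 11.3, 36.7, 24.3, 26.5 and 19.6 RPKM in those of the central marrow. It was 0.0727, 1.37, 4.89, 2.04 and 9.05 RPKM in endothelial cells and 1.27, 3.41, 21.0, 20.4 and 2.17 RPKM in stromal progenitors of the same letters, and 3.66, 0.837, 4.85 and 7.20 RPKM in osteoprogenitors D, G, I and J. The log2 differences were 2.88 ± 0.66, 1.88 ± 0.66 and 2.48 ± 0.71 (limma adjusted p = 0.00071, 0.0265 and 0.007), and stromal progenitor libraries G and I lay within the myeloma range. Ero1l no longer passed without the libraries of letter E or of letter J.

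**Figure D4:**
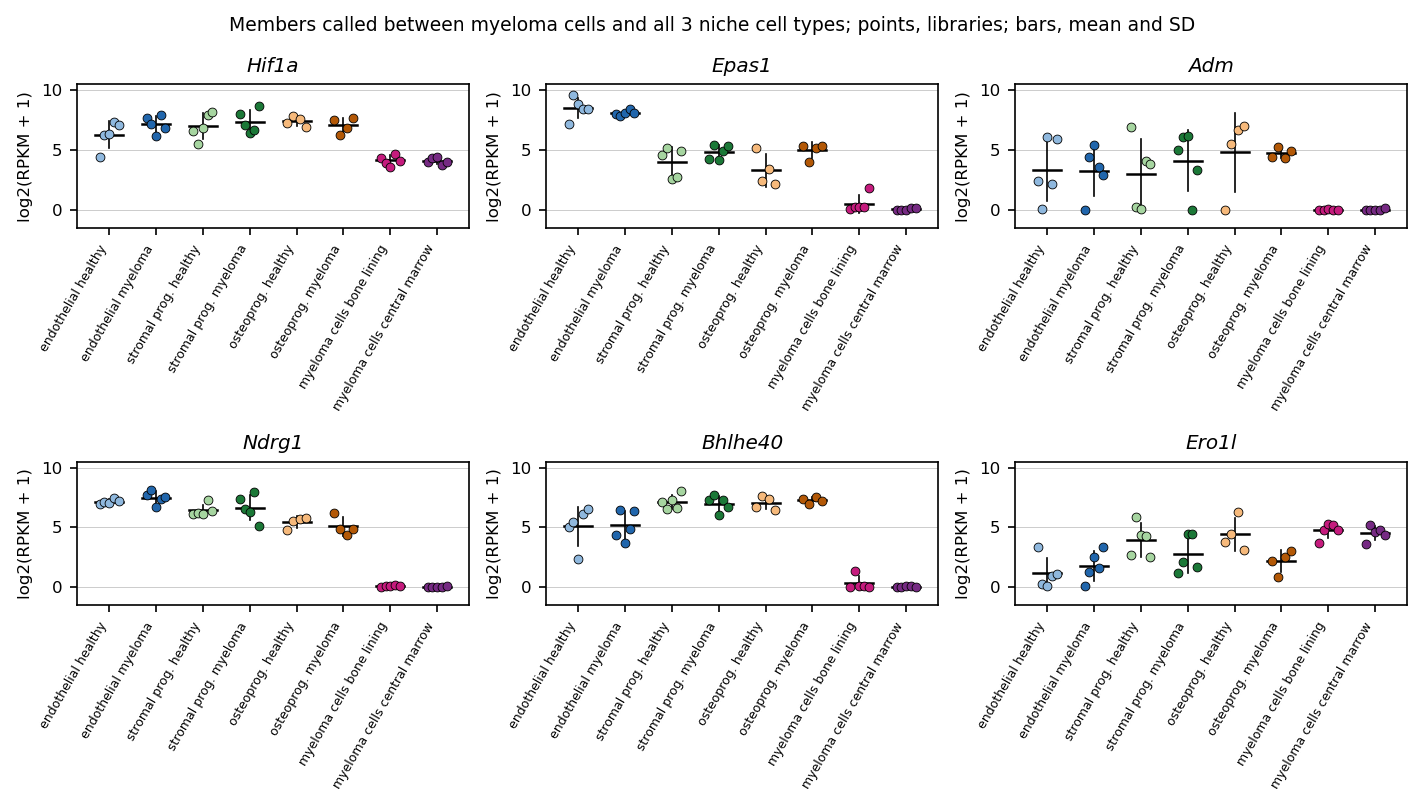
Log2(RPKM + 1) of the 5 genes that were lower and the 1 that was higher in myeloma cells than in each niche cell type, in all 38 libraries. Points are libraries and bars the mean and SD. Ndrg1, Bhlhe40, Epas1 and Adm lie near 0 in nearly all myeloma libraries, Hif1a lies below all niche libraries of myeloma-bearing mice, and Ero1l overlaps with stromal progenitors.

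Among the other genes of glycolysis and pyruvate use, 3 of 25 were higher in myeloma cells than in each niche cell type and 0 lower, and among the other hypoxia genes 1 of 45 was higher and 6 lower, beside 9.51% higher and 6.35% lower over all genes. Pgam2, the muscle form of phosphoglycerate mutase, was 489 ± 145 RPKM in the bone lining and 387 ± 51.3 RPKM in the central marrow (n = 5 each), against at most 0.678 RPKM in any niche library of either kind of mouse. Mif, a cytokine, was 607 ± 196 and 678 ± 98.0 RPKM in myeloma cells and 59.7 ± 38.5, 161 ± 78.5 and 166 ± 47.2 RPKM in endothelial cells, stromal progenitors and osteoprogenitors. Errfi1, a feedback inhibitor of the EGF receptor, was 0 to 0.149 RPKM in myeloma cells and 36.5 ± 32.4, 170 ± 70.9 and 388 ± 131 RPKM in the niche cells in that order. Angptl4, an inhibitor of lipoprotein lipase, was 0 to 4.13 RPKM in myeloma cells and 64.6 ± 58.1, 32.3 ± 22.3 and 29.5 ± 20.6 RPKM in niche cells.

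Paired genes differed in their balance between cell types, described here as the log2 ratio of RPKM + 1 within each library and without a test. Ldha exceeded Ldhb in all 38 libraries, but the median log2 ratio was 7.12 and 6.83 in myeloma cells of the 2 sites, where Ldhb had at most 1 read, and 2.18 to 5.45 in the niche groups. Single endothelial and stromal progenitor libraries reached 7.42 and 7.52, within the myeloma range of 6.6 to 8.1. Where Ldhb is near 0, this ratio follows the level of Ldha alone. Slc16a1 exceeded Slc16a3 in all 10 myeloma libraries (median log2 ratios 4.80 and 3.94), whereas in the 10 stromal progenitor libraries either could be higher. Hk2 exceeded Hk1 in all 10 myeloma and all 8 osteoprogenitor libraries. Pfkp exceeded Pfkl in all myeloma, stromal progenitor and osteoprogenitor libraries, and in 7 of 10 endothelial libraries. Egln1 exceeded Egln3 in all 10 endothelial libraries and in 4 of 10 stromal progenitor libraries. Slc2a1 was at or above Slc2a3, the transporter GLUT3, in all but 2 libraries, and Aldoa exceeded Aldoc in all 38. Eno1 was at most 0.907 RPKM outside healthy endothelial cells, and its ratio to Eno2 had a median between -1.08 and 0.21 over the groups.

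Whether the programme changed with tumour was asked within each niche cell type. No gene of the group passed between myeloma-bearing and healthy mice in endothelial cells (0 of 30 tested), stromal progenitors (0 of 36) or osteoprogenitors (0 of 34). Over all genes, limma called 0 of 7880 (0%), 0 of 8747 (0%) and 1 of 8664 (0.0115%), and at an unadjusted p below 0.05 there were 414, 437 and 422 genes, of which 1, 2 and 5 were of the group. These totals depended on the fit. With all 38 libraries in 1 fit they were 150 (1.18%), 28 (0.221%) and 24 (0.189%) of 12683 genes, and with voom-limma on recovered reads 251 (1.89%), 82 (0.618%) and 28 (0.211%) of 13260. In those 2 fits, the group had 1 and 0 genes in endothelial cells and 0 in the other cell types. The median log2 difference of the group was 0.07, -0.25 and -0.23, beside 0.07, 0.00 and -0.03 over all genes tested.

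In endothelial cells the smallest unadjusted p was that of Ldhb, the lactate dehydrogenase subunit of oxidative tissues. It was 31.1, 71.0, 67.2, 0 and 20.5 RPKM in healthy libraries C, L, M, N and O and 0, 1.51, 5.24, 0 and 0.0449 RPKM in libraries D, E, G, I and J of myeloma-bearing mice. Only healthy library N, at 0, lay within the range of the other group, and the log2 difference was -3.53 ± 1.28 (limma adjusted p = 0.872). With all 38 libraries in the fit Ldhb passed, as 1 of 38 genes of the group beside 1.18% of all genes. Ddit4, an inhibitor of mTOR signalling, was 1.92, 2.26, 4.56, 0 and 10.4 RPKM in healthy and 19.8, 11.2, 4.66, 9.06 and 13.0 RPKM in myeloma-bearing mice (log2 difference 1.68 ± 1.08, adjusted p = 0.937).

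In stromal progenitors, Higd1a was 144, 409, 126, 280.1 and 297 RPKM in healthy libraries C, L, M, N and O and 106, 116, 44.3, 77.6 and 242 RPKM in libraries D, E, G, I and J (log2 difference -1.17 ± 0.49, limma adjusted p = 0.925). Ldha was 335, 182, 233, 412 and 376 RPKM in healthy and 80.0, 226, 235, 127 and 198 RPKM in myeloma-bearing mice (-0.87 ± 0.40, adjusted p = 0.956). Both overlapped between groups. In osteoprogenitors, Slc2a1 was 106, 54.0, 92.3 and 58.7 RPKM in healthy libraries L, M, N and O and 5.52, 28.7, 20.2 and 59.95 RPKM in libraries D, G, I and J (-1.76 ± 0.66, limma adjusted p = 0.981). Ero1l was 12.6, 21.5, 76.0 and 7.92 RPKM in healthy and 3.66, 0.837, 4.85 and 7.20 RPKM in myeloma-bearing mice, without overlap (-2.25 ± 0.92, adjusted p = 0.981). Ankrd37 differed by 1.55 ± 1.53 in endothelial cells, -1.39 ± 1.08 in stromal progenitors and -2.12 ± 0.89 in osteoprogenitors (adjusted p at least 0.976). Of the other pathway genes, 0 passed in any of the 3 cell types.

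The change itself was compared between cell types as an interaction in limma. No gene of the group passed for endothelial cells against stromal progenitors, endothelial cells against osteoprogenitors or stromal progenitors against osteoprogenitors, beside 0.0946%, 0.173% and 0.126% of all genes. The smallest adjusted p was 0.394, for Ldhb between endothelial cells and stromal progenitors, with a difference of log2 changes of -3.61 ± 1.37.

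**Figure D5:**
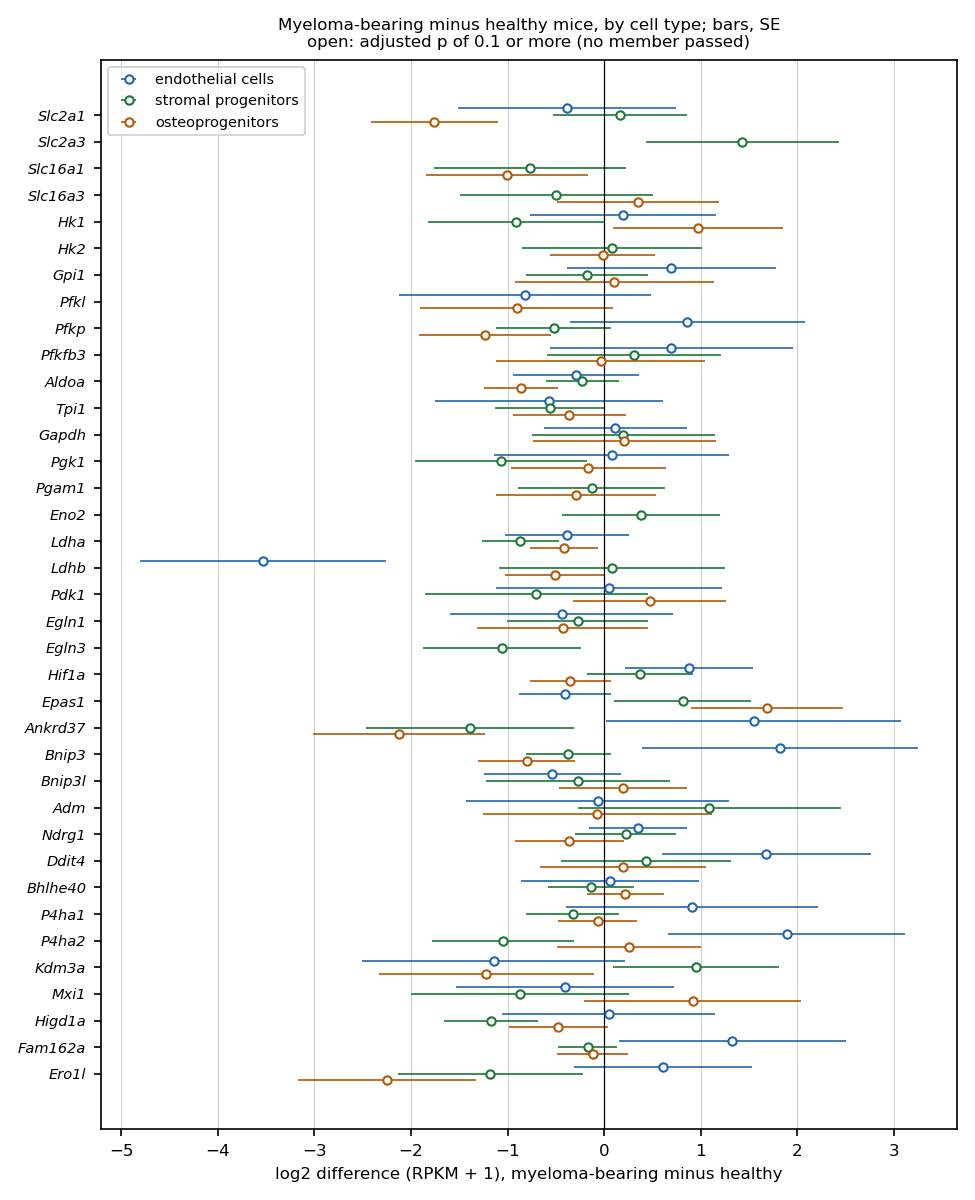
Log2 difference (RPKM + 1), myeloma-bearing minus healthy mice, of each tested gene in endothelial cells (blue), stromal progenitors (green) and osteoprogenitors (orange), with the SE as bars. All points are open, as no gene reached an adjusted p below 0.1, and Ldhb in endothelial cells lies farthest from 0, at -3.53.

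The spread between libraries of a group was smaller in myeloma cells than in niche cells. For genes of the group with a mean above 1 RPKM, the median SD of log2(RPKM + 1) was 0.302 in central marrow and 0.588 in bone-lining myeloma cells, 0.649 (healthy mice) and 0.792 (myeloma-bearing mice) in osteoprogenitors, 1.08 and 1.11 in stromal progenitors, and 1.65 and 1.37 in endothelial cells. Over all genes with such a mean the order was the same at its ends, with 0.49 in central marrow myeloma cells and 1.83 in healthy endothelial cells. Of the 39 genes, 10 were above 1 RPKM in every healthy endothelial library and 13 in every one from myeloma-bearing mice. The other groups had 22 (bone-lining myeloma cells) to 28 (healthy osteoprogenitors) such genes. Over all genes, single healthy endothelial libraries also held fewer above 1 RPKM (4501 to 7463) than healthy osteoprogenitor libraries (7660 to 8789). The counts of the group stand without the same counts over all genes, so nothing particular to the group is read from them.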

How the data were processed

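The authors aligned 50-base single-end SmartSeq2 reads with STAR 2.4.0 to GRCm38/mm10, counted them with featureCounts (Subread 1.4.5-p1), removed genes that did not exceed 1 CPM in 4 samples or more, and deposited RPKM from edgeR. Whole reads were recovered from the deposited RPKM values for all 13260 genes (9735031 to 34883291 per library). They count PCR copies, so precision from counts covers counting error only.

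Comparisons used limma 3.58.1 in R 4.3.3 (lmFit, eBayes with trend) on log2(RPKM + 1). Genes had to exceed 1 RPKM in 4 or more fitted libraries. A call needed a log2 difference beyond 1 and p under 0.1 after Benjamini-Hochberg adjustment. The pseudocount understates changes of low genes. Cell types and interactions were fitted on all 38 libraries in 8 groups, and myeloma-bearing against healthy mice on the libraries compared. In fits of all 38 libraries, each gene has 1 variance shared by groups whose spread differed. Scripts were tested on simulated data. Values of every library are given for Ankrd37, for the 3 called genes with the largest difference in each direction between cell types, and, with none called between mice, for the 2 of smallest p. Members and lists were chosen with earlier results of these data known. Alternatives covered pseudocount, filter, threshold, libraries, scaling, trend, voom-limma, a replicate block and leaving out letters.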

Additional observations from a re-analysis of the deposited data

Results flagged for a closer look

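In 7 of 44 groups of values tested (log2(RPKM + 1) of the genes given by library, in the groups of their own comparison), 1 library lay apart from the rest by Dixon's criterion, which chance meets in about 1 in 20 groups. Ankrd37 was 90.7 RPKM in healthy endothelial library M, where the other 4 held 0 to 0.639 RPKM. P4ha2 was 15.0 RPKM in healthy endothelial library N and 0.0365 to 1.16 RPKM in the others. Ldhb was listed at 0 in the same library N and at 20.5 to 71.0 RPKM in the other 4. Bnip3 was 70.1 RPKM in healthy stromal progenitor library C against 130.2 to 164 RPKM. Epas1 was 15.1 RPKM in osteoprogenitor library G of myeloma-bearing mice, where the others held 36.2 to 40.8 RPKM, and 2.55 RPKM in bone-lining myeloma library J, where the others held 0.0457 to 0.199 RPKM. Bhlhe40 was 1.62 RPKM in bone-lining myeloma library E against 0.0131 to 0.0851 RPKM. The causes were not tested.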

How the results depend on the processing

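Against the 18 genes lower in healthy endothelial cells, 9 passed when other libraries were kept out of the fit (beside 5.93% of all genes) and 8 in myeloma-bearing mice (5.15%). There were 13 with reads scaled by totals alone (beside 718 of all 12755 genes) and 15 at an adjusted p below 0.05 (664 of 12683). Without each letter there were 12 to 16. The 12 were without L (691 of 12559 genes) and the 16 without C or O (848 of 12571 and 769 of 12534). Epas1 was the 1 gene that was higher. Under voom-limma (beside 572 of 13260 genes) and without letter C (beside 669 of 12571) there were 2, and leaving out letters gave 1 to 2. Of the genes higher in myeloma cells there were 3 without the TMM factor (Ero1l, Pgam1 and Slc16a1, beside 17.4% of all genes), and 0 to 1 without each letter (0 without E or J). Those lower numbered 4 to 6 (4 without G, which lost Adm, beside 620 of 12344 genes). Scaling by total reads alone raised log2 levels by 0.48 to 0.59 in myeloma cells and lowered them by 0.39 to 0.42 in stromal progenitors. Between osteoprogenitors and stromal progenitors, 0 were higher under a pseudocount of 0.1, voom-limma, an adjusted p below 0.05, in myeloma-bearing mice or without the 2 neutrophil-marked libraries, and 0 to 1 without each letter (0 without L or M, where the filter removed Aldoc). For those lower, 0 passed under the same choices other than myeloma-bearing mice, in the fit of the libraries compared and under either other scaling. In the fit of the libraries compared 1 was higher, Slc2a1 (beside 1.69% of all genes), with Aldoc removed by the filter. In myeloma-bearing mice 2 were lower (Egln3 and Ndrg1, beside 257 of all 12683 genes), and without each letter 0 to 1 (0 without L or O). The comparisons in myeloma-bearing mice and without the 2 neutrophil-marked libraries were chosen after seeing the data. Without those 2 libraries, 17 genes were lower in endothelial cells, beside 845 of all 12607. With all 38 libraries, Ldhb was the 1 gene that changed in endothelial cells, beside 1.18% of all genes. Leaving out letters gave 0 changed genes in each cell type, and 0 to 1 whose change differed between types. The 1 was Egln3 without O, in endothelial cells against osteoprogenitors, beside 25 of 12534 genes in that direction. Between the bone lining and the central marrow the count was 0 without the filter, with all 38 libraries or under voom-limma, and 0 to 1 without each letter (0 without D), which is description only, since Ankrd37 was selected on that difference.

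Letters were not treated as pairs, since correlations of deviations between same-letter libraries ran from -0.0427 to 0.115 and 1 of 45 exceeded 0.1. In 28 of the 45 the library correlated best with its own letter, a hint from the data and not the design. With a replicate block in a fit of all 38 libraries, 18 genes were lower in healthy endothelial cells, beside 6.86% of all genes. In that fit Ldhb was the 1 gene changed in endothelial cells, beside 1.16% of all genes, as in the fit without the block. Of 463 values of named log2 differences under the alternatives, 0 changed sign, 26 lost their call and 2 gained one. Most named genes were picked for large differences or small p in these same libraries. A kept sign was thus nearly fixed in advance and is no support. Except for scaling, the causes of these shifts were not tested. Reads at or near 0 in niche aliquots and the use of RPKM limit what low genes can show.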
